A study of Drosophila melanogaster with 46 samples.

Results

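The genes described here encode the proteins of the mitochondrial ribosome of Drosophila melanogaster. They were chosen by name: every gene whose symbol begins with mRpL or mRpS and a number, and which has a probe set that names no other gene. This gave 69 genes of the 11981 genes with a probe set of their own, 44 named for the large subunit and 25 for the small subunit. Of the 73 genes of such names in RefSeq, mRpL34, mRpL37, mRpL53 and mRpS10 were not counted. mRpL53 and mRpS10 share a probe set with another gene, and mRpL34 and mRpL37 are not analysed here. A further pair of small-subunit genes, tko and bonsai, carry other names and were kept apart.

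The mitochondrial ribosome is built from RNAs of the mitochondrial genome and proteins of the nuclear genome, which are made in the cytosol and imported. It translates the few proteins that the mitochondrial genome encodes, all of them core subunits of the respiratory chain and the ATP synthase. The large subunit holds the peptidyl transferase centre, where amino acids are joined, and the exit tunnel. The small subunit holds the decoding centre, where the codons are read. Many of its proteins have counterparts in bacteria and others are found only in mitochondria.

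Transcripts were measured on Affymetrix Drosophila 2.0 arrays in pools of 5 whole virgin females. The tested line, SR, had been selected for starvation resistance and lives long, and C is its unselected, normal-lived control. Each line was held on a yeast and sugar medium at 0.5 times (malnutrition), 2 times (optimal food) or 5 times (overfeeding) the standard concentration, and was sampled when old, with 10% of the cohort alive, or middle-aged, with 90% alive. The 12 groups of line, food and age hold 4 arrays each, except old C flies on malnutrition and on overfeeding with 3 each, 46 in all. Each selection regime is represented by 1 line, and the comparison of SR with C flies is one of these 2 lines.

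The values are log2 intensities. A difference of 1 on this scale is a doubling, and levels are compared between arrays for a gene but not between genes, since probe sets differ in brightness. The array medians lay between 5.05 and 5.29. Of the 46 arrays 5 stood apart, with a mean over 36 cytosolic ribosomal protein genes of 11.62 to 11.78, against 12.02 to 12.30 in the other 41. All 5 carry replicate number 1, and they are of SR flies old on malnutrition and middle-aged on optimal food, and of C flies old on malnutrition, old on optimal food and middle-aged on optimal food. Counts below are also given without them where they move by more than 1.5 times. The means of 14 male markers were low in every array, between 3.72 and 4.11, and those of 25 germline markers were between 9.44 and 10.24, so that the female label was met and the pools held ovary RNA.

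All 69 genes were measured well above the dim range of the arrays. Their means over all arrays ran between 8.37 for mRpL40 and 10.86 for mRpS5, with a median of 9.42. The lowest 3 were mRpL40, mRpL11 and mRpS6, and the highest 3 were mRpS5, mRpS21 and mRpS7. No gene moved far: the distance between the lowest and the highest of the 12 group means was 0.13 to 0.77 over the genes, with a median of 0.35, against a spread between replicates (SD within groups) of 0.076 to 0.20, with a median of 0.12. Of the 69 genes 28 had their lowest group mean in old C flies on optimal food. For 30 genes the highest was in middle-aged overfed C flies and for 13 in middle-aged overfed SR flies. The same counts were not made over all probe sets, so they are not read as particular to these genes.

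The genes moved together within groups as well as between them. The deviation of a gene from its group mean correlated with that of the other members' mean at a median r of 0.70 over 46 arrays, between -0.37 and 0.90 over the genes. The members' mean followed that of 9 mitochondrial translation factors (r = 0.80, rho = 0.74, and r = 0.73 without the 2 farthest arrays). With the cytosolic ribosomal proteins it had r = 0.63 (rho = 0.50), and 0.16 over the 41 arrays without those that stood apart. With 17 neuron markers it had r = -0.57 (rho = -0.49), and with the germline markers r = 0.53 (rho = 0.39). Over the same 41 arrays r was 0.77 with the translation factors, -0.61 with the neuron markers and 0.62 with the germline markers (rho = 0.72, -0.57 and 0.59). These are descriptions over arrays that share 1 normalization, and no test was made of them.

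**Figure D1:**
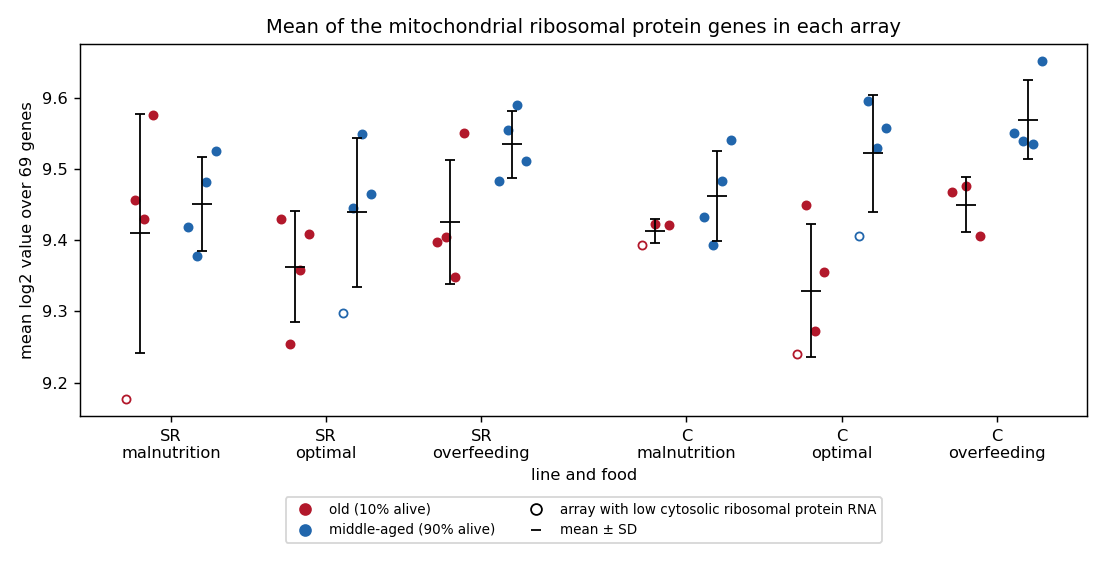
Mean log2 value over the 69 mitochondrial ribosomal protein genes in each of the 46 arrays (points), by line and food, with old flies left of middle-aged ones and the mean ± SD of each group in black; open points are the 5 arrays with low cytosolic ribosomal protein RNA. Old C flies on optimal food have the lowest group mean, 9.33, and middle-aged overfed C flies the highest, 9.57.

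The first question was how these transcripts differ between old and middle-aged flies. In C flies on optimal food they were lower in old flies across both subunits: 30 of 69 genes fell and 0 rose at an adjusted p under 0.05 (limma over all 18769 probe sets, Benjamini-Hochberg), which is 43.5% of the genes. Of all probe sets 26.4% were called in this comparison, 16.5% as lower. Among the 9675 probe sets with a mean of at least 5, above the dim range of the arrays but not matched to these genes in brightness, 47.2% were called and 30.3% were lower. The median difference of the genes was -0.19, against -0.028 over all probe sets and -0.094 over the brighter ones, and 62 of 69 genes were lower in old flies, against 55.9% of all probe sets. Of the 44 genes named for the large subunit 20 fell, and of the 25 named for the small subunit 10 fell. The mean over the 69 genes was 9.24, 9.45, 9.27 and 9.36 in the 4 old arrays, against 9.41, 9.60, 9.53 and 9.56 in the 4 middle-aged ones, so that old replicate 2 overlapped with middle-aged replicate 1, an array that stood apart. Between arrays of the same number, which deviated together in this comparison, the mean was lower in old flies in all 4 pairs.

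The steepest fall was that of mRpL3, whose bacterial counterpart lies beside the peptidyl transferase centre. Its log2 values were 8.72, 8.91, 8.57 and 8.67 in the old arrays, against 9.16, 9.39, 9.08 and 9.34 in the middle-aged ones. The groups did not overlap, and its level fell by 30.4% (-0.52 ± 0.14, log2 difference ± SE, adjusted p = 0.0054). mRpL14, a protein of the face that meets the small subunit, had 9.41, 9.49, 9.24 and 9.42 in old flies, against 9.80, 9.84, 9.77 and 9.69 in middle-aged flies, again with no overlap (-0.38 ± 0.084, adjusted p = 0.0019). mRpL46, placed in the central protuberance of the mammalian large subunit, had 9.42, 9.53, 9.17 and 9.35 in old flies, against 9.63, 9.90, 9.73 and 9.88 in middle-aged flies (-0.41 ± 0.10, adjusted p = 0.0037). Each of these 3 calls held when any 1 of the 8 arrays was left out.

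The other members of the 5 with the largest falls were mRpS18A and mRpL39. mRpS18A, which carries a small-subunit name although its mammalian counterpart sits in the large subunit, had 10.26, 10.26, 9.89 and 10.04 in old flies, against 10.51, 10.65, 10.44 and 10.52 in middle-aged flies (-0.42 ± 0.11, adjusted p = 0.0078). mRpL39 had 9.17, 9.40, 9.03 and 9.03 in old flies, against 9.45, 9.64, 9.44 and 9.63 in middle-aged flies (-0.38 ± 0.11, adjusted p = 0.0081). In both genes old replicate 3 was at or near the bottom, and both calls were lost without it (adjusted p = 0.061 for mRpS18A and 0.051 for mRpL39). The smallest adjusted p of the 69 genes was that of mRpL10, a protein of the stalk base, with 9.56, 9.58, 9.35 and 9.50 in old flies, against 9.75, 9.91, 9.76 and 9.82 in middle-aged flies (-0.32 ± 0.067, adjusted p = 0.0013). mRpL12, the stalk protein that recruits translation factors and is held by mRpL10 in bacteria, also fell (-0.33 ± 0.11, adjusted p = 0.027). These last 2 genes lie outside the naming rule and were chosen after their values were seen.

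In 23 of the 69 genes, 18 of them among the 30 that fell, all 4 old arrays lay under all 4 middle-aged ones, and no gene was separated in the other direction. Over all probe sets 13.1% were separated as lower and 9.97% as higher. These shares were not taken over the brighter probe sets. The 7 genes with a positive difference reached at most 0.10, in mRpL33, and none was called.

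**Figure D2:**
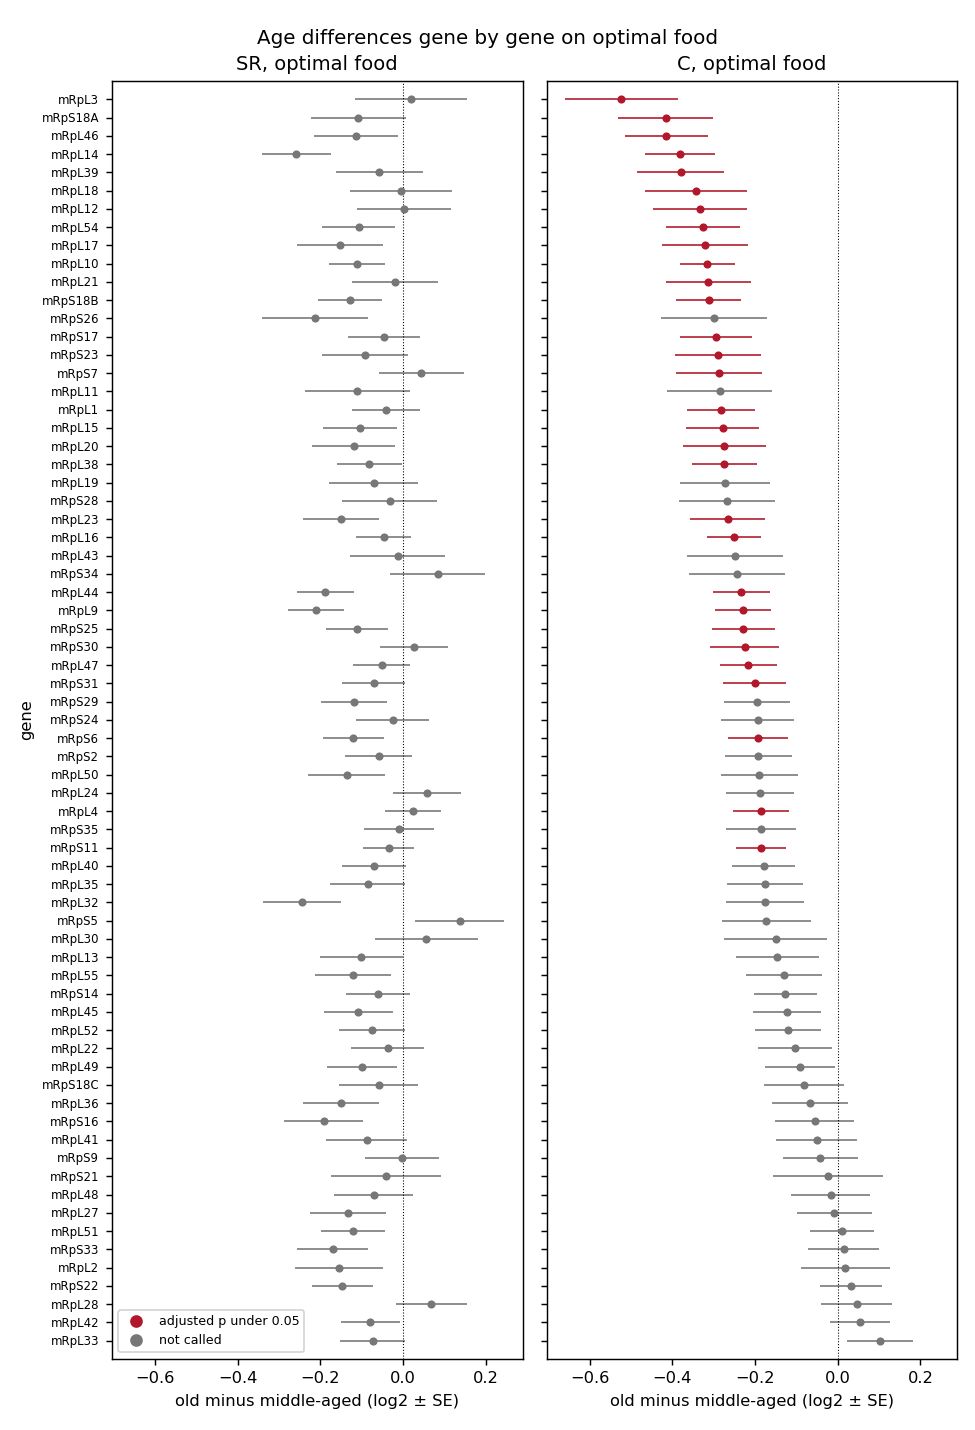
Age difference of each of the 69 genes on optimal food (old minus middle-aged, log2, bars ± SE), with SR flies on the left and C flies on the right and genes ordered by the C value; red points have an adjusted p under 0.05. The 30 called genes are all in C flies and all lower in old flies, led by mRpL3 at -0.52, which has 0.020 in SR flies.

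Germline markers moved with this comparison. Of 25, 18 fell and 1 rose, with a median of -0.49, and their mean was 9.45 to 9.93 in old C flies, against 10.08 to 10.19 in middle-aged C flies on optimal food. Old replicates 3 and 4 had the lowest germline means. In whole flies, fewer cells of a type and less RNA per cell cannot be told apart. With the germline mean as a covariate 0 of the 69 genes were called and their median was -0.079, while 1.06% of all probe sets were called. In 4 other tissue lists the called markers moved the opposite way. Of these 6 of 10 haemocyte, 5 of 13 muscle, 3 of 9 gut and 3 of 17 neuron markers rose, and 0 fell. Of all probe sets 26.4% were called, 16.5% as lower. Eggshell marker means were 5.30, 6.31, 5.67 and 11.37 in old flies, against 6.78, 6.57, 6.07 and 8.15 in middle-aged flies. The part of these lists in the result was not tested beyond a centring on the neuron markers, with which 46 genes were lower. That centring takes 0.30, the shift of the neuron markers, off the age difference of every probe set.

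The number of genes called in this comparison depended on single arrays. It was 9 once old replicate 3 was left out, 13 and 17 without middle-aged replicates 2 and 4, and between 20 and 37 without any 1 of the others. It was also 11 when the 2 compared groups were fitted alone and 15 when arrays were centred on the median of the brighter probe sets. In each of these the genes called were all lower in old flies. The shares of all probe sets called under these settings are not given here, so the shifts are not read as particular to these genes.

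No gene was called for age in the other 5 combinations of line and food, in which few probe sets were called at all. In SR flies 0 of 69 genes were called on malnutrition, optimal food and overfeeding, with 0.33%, 0.964% and 1.81% of all probe sets called, and 1, 4 and 9 genes had an unadjusted p under 0.05. In C flies 0 of 69 were called on malnutrition and on overfeeding, with 0.847% and 1.26% of all probe sets called, and 4 and 14 genes had an unadjusted p under 0.05. The direction was nonetheless mostly the same. In SR flies 50, 59 and 62 of 69 genes were lower in old flies on the foods in rising order, with medians of -0.037, -0.079 and -0.12. Of all probe sets 48.2%, 55.6% and 54.8% were lower in these comparisons. In C flies 46 genes were lower on malnutrition (median -0.044) and 64 on overfeeding (median -0.11), against 48.6% and 60.9% of all probe sets. The genes moved together within groups, so that their signs are not independent.

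**Figure D3:**
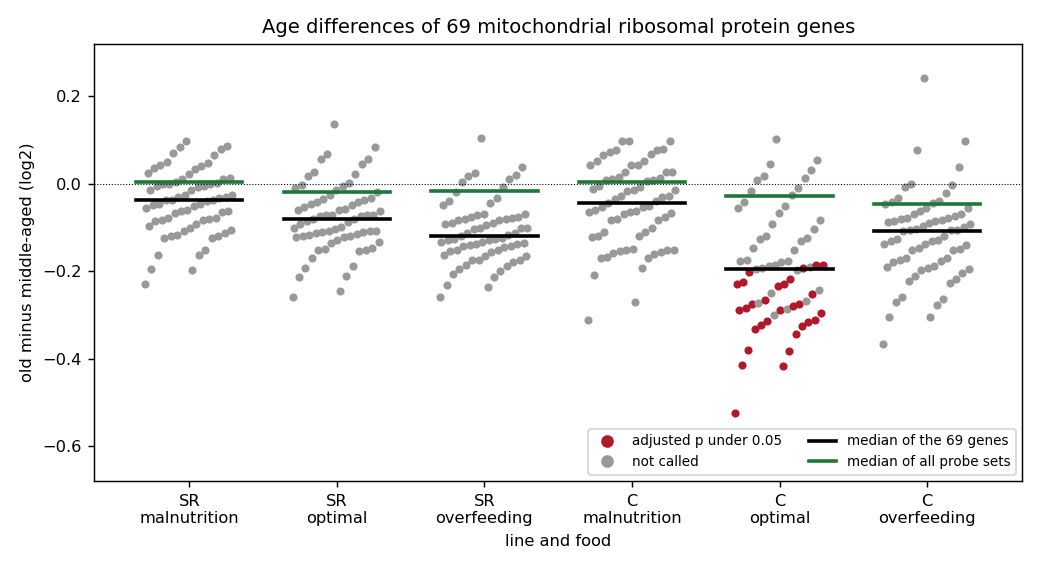
Age differences (old minus middle-aged, log2) of the 69 genes (points) in each line and food, red where the adjusted p is under 0.05; the black bar is their median and the green bar the median of all 18769 probe sets. The black bar lies under the green one in all 6 comparisons, at -0.19 against -0.028 in C flies on optimal food.

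In overfed C flies the arrays of single genes were often separated. In 24 of 69 genes all 3 old arrays lay under all 4 middle-aged arrays, although none of these was called. Over all probe sets 11.8% were separated in this way, a share that was not taken over the brighter ones. In SR flies on optimal food mRpL14 was separated in the same direction, with 9.24, 9.18, 9.24 and 9.23 in old flies, against 9.49, 9.45, 9.45 and 9.53 in middle-aged flies, and its difference of -0.26 ± 0.084 had an adjusted p of 0.17. mRpL3 had 8.88, 8.44, 8.82 and 9.06 in old SR flies, against 8.73, 8.69, 9.07 and 8.63 in middle-aged SR flies on optimal food, with the groups overlapping throughout. Of its 4 middle-aged SR values, 3 lay within the range of the old C flies.

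Over the 6 age comparisons 24 genes (34.8%) were lower in old flies in every one, and 0 were higher in every one. Of all 18769 probe sets 1000 (5.33%) were lower in every one and 750 were higher in every one. The same was not counted over the brighter probe sets. The 24 include mRpL1, mRpL10, mRpL11, mRpL38, mRpL39 and mRpL46 of the large subunit and mRpS2, mRpS23, mRpS28 and mRpS31 of the small subunit. The age difference averaged over the 3 foods, a contrast added after the single ones were seen, called 27 genes in C flies, all lower, with 21.3% of all probe sets called, 12.4% as lower, and 37.9% of the brighter ones, 22.6% as lower. Of the 27 genes 22 also fell on optimal food alone. The largest falls of this average were those of mRpL3 (-0.29 ± 0.083, adjusted p = 0.012), mRpL39 (-0.25 ± 0.064, adjusted p = 0.0075), mRpS28 (-0.24 ± 0.070, adjusted p = 0.016), mRpL18 (-0.23 ± 0.075, adjusted p = 0.027) and mRpL43 (-0.22 ± 0.070, adjusted p = 0.027). Of the 22 C arrays, leaving out middle-aged replicate 4 or old replicate 2 on malnutrition took away the call of mRpL18 (adjusted p up to 0.055), and leaving out any 1 of 5 took away that of mRpL43 (adjusted p up to 0.075), while the other 3 held. The count was 13 without overfed old replicate 3, 16 without middle-aged replicate 3 on malnutrition or middle-aged replicate 2 on optimal food, and 17 without middle-aged replicate 4 on malnutrition. It was 0 with the germline covariate, 17 with centring on the brighter probe sets and 67, all lower, with centring on the neuron markers. The last of these takes 0.25 off the difference of every probe set.

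In SR flies the same average called 0 of 69 genes, with 2.55% of all probe sets called. Here 67 of 69 genes were lower in old flies, against 54.8% of all probe sets, and their median was -0.079. An unadjusted p under 0.05 was reached by 17 genes, and the smallest adjusted p was 0.052. The SR count was 1 or 2 under 5 of the alternatives. It was 2 without old replicate 4 on malnutrition, and 1 without middle-aged replicate 2 or old replicate 1 on optimal food or overfed old replicate 4.

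That genes fell in C flies and were not called in SR flies does not by itself show a difference between the lines, so the difference of the age effects was tested. It called 0 of 69 genes on malnutrition, optimal food or overfeeding, with 0.0266%, 5.56% and 0.0959% of all probe sets called. On optimal food 55 of 69 genes had a smaller fall or a rise in SR flies relative to C flies, with a median of 0.13. Of all probe sets 50.5% had a negative difference of the age effects, with a median of -0.0029. The brighter probe sets leaned the same way as the genes, with 43.3% negative and a median of 0.085. There 13 genes had an unadjusted p under 0.05, and the smallest adjusted p was 0.070. The count was 1 when C middle-aged replicate 1, C old replicate 2, SR middle-aged replicate 3 or SR old replicate 2 was left out, and without the 5 arrays that stood apart 1 gene was higher and 1 lower.

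The age effect was also compared between foods within a line. In C flies 2 genes had an age difference on malnutrition that was above that on optimal food, with 5.43% of all probe sets called. mRpL14 had 9.65, 9.57 and 9.47 in old and 9.42, 9.42, 9.56 and 9.67 in middle-aged C flies on malnutrition, where the groups overlap, and the difference of its age effects was 0.42 ± 0.12 (adjusted p = 0.040). mRpL16, whose bacterial counterpart lies near the tRNA sites of the large subunit, had 9.86, 10.03 and 9.88 in old and 9.83, 9.79, 9.82 and 9.88 in middle-aged C flies on malnutrition. On optimal food it had 9.55, 9.57, 9.38 and 9.51 in old flies, against 9.68, 9.83, 9.75 and 9.76 in middle-aged flies, and the difference of the effects was 0.35 ± 0.097 (adjusted p = 0.032). The calls did not hold without any 1 of 9 of the 15 arrays for mRpL14 and of 7 for mRpL16, with adjusted p up to 0.15 and 0.10, and neither held with the germline covariate, neuron centring or a fit of the compared groups alone. The count was 3 without middle-aged replicate 4 on malnutrition or old replicate 1 or 2 on optimal food, and 0 or 1 without 9 of the arrays. No gene was called in the other comparisons of the age effect between foods (overfeeding in C flies, both foods in SR flies), with 0.0373%, 0.677% and 0.016% of all probe sets called and 4, 3 and 0 genes at an unadjusted p under 0.05.

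Other genes of mitochondrial translation and of mitochondrial DNA fell in C flies on optimal food too, where the germline markers had a median of -0.49, whose part in these lists was not tested. Of 14 mitochondrial tRNA synthetases, which charge the tRNAs used there, 12 fell and 0 rose, with a median of -0.50. They were led by ArgRS-m (-0.60 ± 0.14), SerRS-m (-0.44 ± 0.10), TyrRS-m (-0.52 ± 0.12) and TrpRS-m (-0.58 ± 0.14), with adjusted p between 0.0030 and 0.0036. Of 9 mitochondrial translation factors 4 fell and 0 rose, with a median of -0.33: mEFG1, an elongation factor (-0.55 ± 0.12), mRF1, a release factor (-0.53 ± 0.15), mRRF2, which acts in recycling (-0.70 ± 0.20), and mIF3, an initiation factor (-0.69 ± 0.21). Of 11 genes for mitochondrial DNA and RNA upkeep 8 fell and 0 rose, with a median of -0.30, among them mTTF and mTerf5, of the family of transcription termination factors (-0.26 ± 0.059 and -0.52 ± 0.12), mtDNA-helicase (-0.58 ± 0.14) and PolG1, the replicative polymerase (-0.59 ± 0.17). bonsai, the homologue of a bacterial small-subunit protein, fell (-0.23 ± 0.085, adjusted p = 0.044), and tko, a protein of the decoding centre, had -0.19 ± 0.088 (adjusted p = 0.12).

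The nuclear partners of the proteins made by this ribosome, and the proteins of the cytosolic ribosome, had another pattern. Of 71 nuclear subunits of oxidative phosphorylation 7 rose and 2 fell in old C flies on optimal food, with a median of 0.12. Of 36 cytosolic ribosomal proteins 1 fell and 0 rose, with a median of -0.030. Of all probe sets 26.4% were called in this comparison, 16.5% as lower, with a median of -0.028. The RNAs encoded by the mitochondrial genome are not analysed here. In SR flies on optimal food 0 of the tRNA synthetases, translation factors, DNA and RNA genes, oxidative phosphorylation subunits and cytosolic ribosomal proteins were called for age. Of all probe sets 0.964% were called there. In the test of the difference between lines on optimal food, 2 tRNA synthetases and 1 translation factor, mEFG1 (0.55 ± 0.17, adjusted p = 0.046), had an age effect in SR flies above that in C flies, and 2 oxidative phosphorylation subunits one below it. That test called 5.56% of all probe sets.

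**Figure D4:**
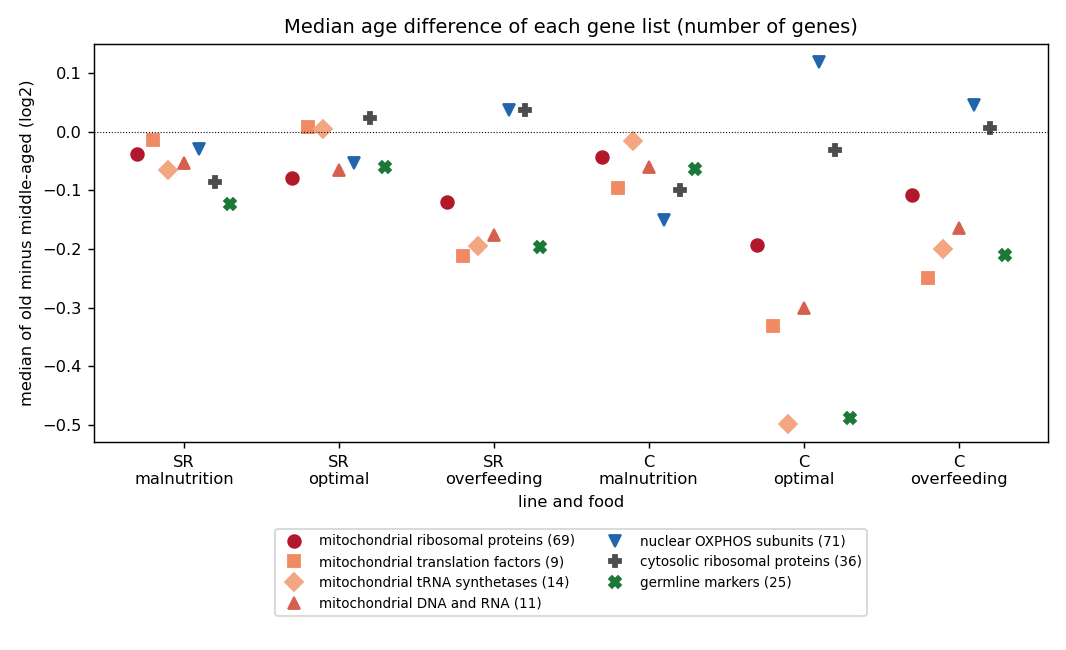
Median age difference (old minus middle-aged, log2) of 7 gene lists in each line and food, with the number of genes in the legend. In C flies on optimal food the mitochondrial ribosomal proteins (-0.19), translation factors (-0.33), DNA and RNA genes (-0.30) and tRNA synthetases (-0.50) lie under 0 with the germline markers (-0.49), and the nuclear OXPHOS subunits lie above it (0.12).

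The second question was how the lines differ. Single genes differed between SR and C flies in both directions, and no gene was called in all 6 combinations of food and age. The line difference averaged over foods and ages, a contrast added after the single ones were seen, called 6 genes as higher and 13 as lower in SR flies, with 20.4% of all probe sets and 32.3% of those with a mean of at least 5 called, against 27.5% of the members, and its median over the 69 genes was -0.0079. The highest were mRpS26 (0.42 ± 0.053), mRpL40 (0.22 ± 0.032), mRpL43 (0.15 ± 0.049), mRpS29 (0.15 ± 0.033) and mRpS22 (0.14 ± 0.031). The lowest were mRpL33 (-0.34 ± 0.033), mRpL48 (-0.32 ± 0.040), mRpS5 (-0.25 ± 0.045), mRpL55 (-0.21 ± 0.039) and mRpL14 (-0.20 ± 0.035). None of these 10 calls was lost when any 1 of the 46 arrays was left out. With centring on the neuron markers 1 gene was higher and 9 were lower, and the calls of mRpL40, mRpL43, mRpS29 and mRpS22 were lost.

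mRpS26, a small-subunit protein of animal mitochondria without a bacterial counterpart, had the largest excess in SR flies. Its log2 values ran between 9.31 and 10.14 in the 24 SR arrays (median 9.86), against 9.04 to 9.57 in the 22 C arrays (median 9.34). It was higher in SR flies in all 6 combinations of food and age, and called in old flies on overfeeding, with 9.74, 9.95, 9.84 and 10.14 in SR against 9.40, 9.31 and 9.34 in C (0.57 ± 0.14, adjusted p = 0.012), and in old flies on malnutrition, with 9.36, 9.92, 9.92 and 9.87 in SR against 9.26, 9.35 and 9.30 in C (0.46 ± 0.14, adjusted p = 0.048). The single low SR array is one of those that stood apart. The overfeeding call was lost without SR replicate 4 or C replicate 2 or 3 (adjusted p up to 0.071) and the malnutrition call without any 1 array other than SR replicate 1 (adjusted p up to 0.16). Without that array 4 genes were higher and 1 lower in old SR flies on malnutrition.

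mRpL33, a large-subunit protein with a bacterial counterpart, was lower in SR flies. It ran between 9.89 and 10.23 in SR arrays (median 10.05), against 10.08 to 10.64 in C arrays (median 10.41), and in 5 of the 6 combinations no SR array reached a C array. In old flies on optimal food it had 10.02, 10.14, 10.02 and 9.93 in SR, against 10.36, 10.48, 10.52 and 10.50 in C (-0.43 ± 0.079, adjusted p = 0.00033). It was called as lower in 4 combinations, the others being old flies on overfeeding (-0.47 ± 0.085), middle-aged flies on malnutrition (-0.40 ± 0.079) and middle-aged flies on optimal food (-0.26 ± 0.079). The first 3 of these calls held without any 1 array.

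mRpL48 and mRpL40, both proteins of the central protuberance in mammals, differed in opposite directions. mRpL48 ran between 7.99 and 8.59 in SR arrays (median 8.37), against 8.48 to 8.86 in C arrays (median 8.67). It was called as lower in SR flies in old flies on malnutrition (-0.46 ± 0.10, adjusted p = 0.0048), a call that held without any 1 of 7 arrays, and on optimal food when old (-0.34 ± 0.096) and middle-aged (-0.29 ± 0.096) and on malnutrition when middle-aged (-0.33 ± 0.096), where 5, 5 and 6 of the 8 single omissions took the call away, with adjusted p up to 0.15, 0.18 and 0.13. mRpL40 ran between 8.25 and 8.67 in SR arrays (median 8.44), against 7.95 to 8.46 in C arrays (median 8.27). It was called as higher in SR flies in old flies on optimal food (0.31 ± 0.077, adjusted p = 0.013) and in middle-aged flies on overfeeding (0.30 ± 0.077, adjusted p = 0.015), calls that were lost without SR replicate 1 or C replicate 1 or 4 on optimal food (adjusted p up to 0.069) and without SR replicate 4 or C replicate 1 on overfeeding (adjusted p up to 0.070).

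**Figure D5:**
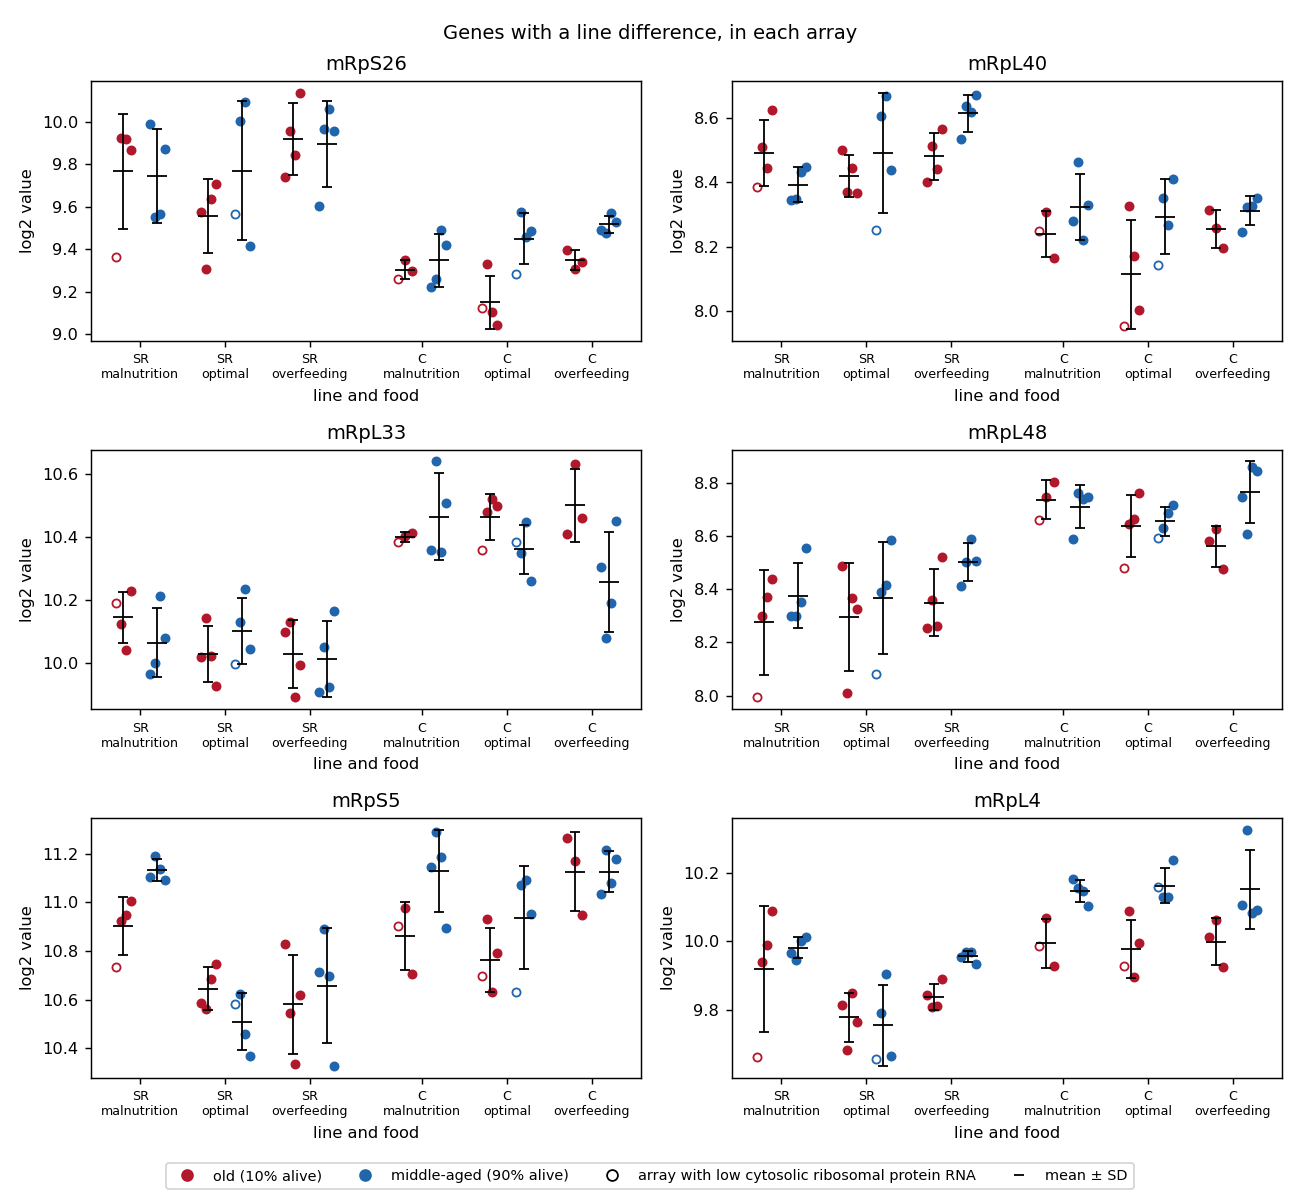
Log2 values of 6 genes in each array (points), by line and food, with old flies left of middle-aged ones and mean ± SD in black; open points are the 5 arrays that stood apart. mRpS26 and mRpL40 are higher in SR flies (medians 9.86 and 8.44, against 9.34 and 8.27 in C flies), mRpL33, mRpL48 and mRpL4 are lower, and mRpS5 is called as lower in overfed flies of both ages and in middle-aged flies on optimal food.

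mRpS5, whose bacterial counterpart lines the channel by which mRNA enters, was called for line in 3 of the 6 combinations. On malnutrition the difference was 0.043 ± 0.12 in old and 0.0025 ± 0.11 in middle-aged flies, and in old flies on optimal food it was -0.12 ± 0.11 (adjusted p = 0.61). In overfed old flies it had 10.83, 10.54, 10.34 and 10.62 in SR, against 11.26, 11.17 and 10.95 in C (-0.54 ± 0.12, adjusted p = 0.0032). In overfed middle-aged flies it had 10.71, 10.89, 10.70 and 10.33 in SR, against 11.03, 11.22, 11.08 and 11.18 in C (-0.47 ± 0.11, adjusted p = 0.0056). On optimal food it was lower in middle-aged SR flies (-0.43 ± 0.11, adjusted p = 0.0058), and this call held without any 1 array, while the overfed ones were lost without C old replicate 1 (adjusted p = 0.051) and without SR middle-aged replicate 4 (adjusted p = 0.074). The difference between foods of this line effect was not called for mRpS5 or any other of the 69 genes, on malnutrition or overfeeding, in old or middle-aged flies. Of all probe sets 0.288% (old) and 2.16% (middle-aged) were called there for malnutrition and 0.0213% and 0.016% for overfeeding, and 1, 5, 2 and 2 of the genes had an unadjusted p under 0.05.

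By single combination, 1 gene was higher and 8 were lower in middle-aged SR flies on optimal food, with 16.9% of all probe sets and 29.2% of the brighter ones called. Neuron markers were 0.40 higher in SR flies here. Centring on them takes this amount off the difference of every probe set, and with it 50 genes were lower and 0 higher. The compared groups alone gave 5 genes, all lower. Beside those named, mRpL3 (-0.46 ± 0.14, adjusted p = 0.017), mRpL4, whose bacterial counterpart lines the exit tunnel (-0.41 ± 0.068, adjusted p = 6.8e-05), mRpL14 (-0.29 ± 0.084, adjusted p = 0.015), mRpL10 and mRpL55 were lower, and mRpS22 was higher (0.26 ± 0.074, adjusted p = 0.014; -0.14 with centring on the neuron markers). mRpL4 had 9.66, 9.79, 9.91 and 9.67 in SR, against 10.16, 10.13, 10.13 and 10.24 in C, and its call held without any 1 array. The others of the named genes did not all hold: mRpL3 was lost without SR replicate 4 or C replicate 2 or 4 (adjusted p up to 0.068), mRpL14 without C replicate 2 (adjusted p = 0.054) and mRpS22 without SR replicate 4 or C replicate 1 (adjusted p = 0.065 for each). In place of 9 genes, 5 were called without C replicate 2, and 6 without C replicate 3 or 4 or SR replicate 4. In the other 5 combinations 2 or 3 genes were called, with 3.64% (malnutrition, old), 4.4% (optimal food, old), 2.59% (overfeeding, old), 3.46% (malnutrition, middle-aged) and 4.51% (overfeeding, middle-aged) of all probe sets called. These small counts moved with the processing. With neuron centring they were 0 on malnutrition at both ages and in old flies on optimal food, and 1 on overfeeding at both ages. Without the arrays that stood apart they were 4 (malnutrition, old), 7 (optimal food, old) and 5 (overfeeding, middle-aged), with the germline covariate 7 (optimal food, old) and 4 (overfeeding, middle-aged), and with the compared groups alone 0 (malnutrition, old) and 1 in each of the others but overfed old flies, which had 2.

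Across the 6 line comparisons 9 genes were higher and 11 lower in SR flies in every one, 29.0% of the genes, while 14.8% of all probe sets kept 1 sign. This share was not taken over the brighter probe sets, so the count is not read as particular to these genes. Beside the genes above, the higher ones include mRpL27, mRpL42, mRpL50 and mRpS9, and the lower ones mRpL32, mRpL41 and mRpS18C.

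The third question was how food acts. On malnutrition a few genes changed against optimal food in each group, and not in 1 direction. The difference averaged over lines and ages, again added later, called 13 genes as higher and 6 as lower on malnutrition, with 32% of all probe sets and 49.1% of the brighter ones called and a median over the 69 genes of 0.0081. Neuron markers were 0.46 to 0.97 higher on malnutrition over the 4 groups, and 0.77 higher in the average. With centring on them all 69 genes of the average were lower on malnutrition, so that every rise on malnutrition given here becomes a negative difference under that scaling, other than that of mRpS5 in middle-aged SR flies (0.16, adjusted p = 0.47). Other lists moved with malnutrition too. Eggshell marker means were 4.97 to 5.48 on malnutrition, against 5.30 to 11.37 on optimal food. Gut marker means were 7.97 to 10.11 against 9.90 to 11.29, and muscle marker means 9.61 to 10.65 against 8.80 to 10.28. The germline markers had a shift of -0.035 in the average. The part of the neuron markers was not tested otherwise, and that of the eggshell, gut and muscle markers was not tested.

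mRpS5 had the largest food difference of any member. In middle-aged SR flies it had 11.11, 11.19, 11.14 and 11.09 on malnutrition, against 10.58, 10.62, 10.46 and 10.37 on optimal food, a rise of 54.0% (0.62 ± 0.11, adjusted p = 8.6e-05) that held without any 1 array. mRpL4 also rose there (0.23 ± 0.068, adjusted p = 0.021). mRpS29, a GTP-binding protein, fell in the same group, with 9.33, 9.41, 9.37 and 9.43 on malnutrition, against 9.74, 9.55, 9.72 and 9.59 on optimal food (-0.26 ± 0.079, adjusted p = 0.023), together with mRpS22 (-0.26 ± 0.074) and mRpL51 (-0.26 ± 0.078). Of all probe sets 14% were called. The calls of mRpL4, mRpS29 and mRpL51 were each lost without 4 of the 8 arrays (adjusted p up to 0.086, 0.081 and 0.092), and that of mRpS22 without replicate 4 on optimal food (adjusted p = 0.066). The count was 3 without replicate 1 or 3 on malnutrition or replicate 1 or 4 on optimal food.

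In middle-aged C flies mRpS29 fell as well, with 9.30, 9.30, 9.24 and 9.41 on malnutrition, against 9.72, 9.49, 9.44 and 9.58 on optimal food (-0.25 ± 0.079, adjusted p = 0.029). mRpL14 (-0.25 ± 0.084) and mRpS6 (-0.21 ± 0.073) fell too, with 14.3% of all probe sets called. These 3 calls were lost without 5, 5 and 7 of the 8 arrays (adjusted p up to 0.14, 0.15 and 0.17), and none held with the germline covariate. The count was 0 without replicate 1 or 2 on malnutrition or replicate 1 on optimal food, 1 without replicate 2, 3 or 4 on optimal food, and 8 without the arrays that stood apart.

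In old flies the called genes were all higher on malnutrition. In C flies they were mRpL3 (0.42 ± 0.15, adjusted p = 0.039), mRpL16, mRpL54 and mRpL46 (0.33 ± 0.11, adjusted p = 0.031), with 17.7% of all probe sets called. mRpL16 had 9.86, 10.03 and 9.88 on malnutrition, against 9.55, 9.57, 9.38 and 9.51 on optimal food (0.42 ± 0.071, adjusted p = 2.4e-05), and mRpL54 had 9.38, 9.25 and 9.28 on malnutrition, against 8.92, 9.04, 8.76 and 8.88 on optimal food (0.40 ± 0.096, adjusted p = 0.0022). Both held without any 1 of the 7 arrays, while mRpL3 was lost without 5 and mRpL46 without 4 of them (adjusted p up to 0.13 and 0.14), and the count was 2 without replicate 1 on malnutrition or replicate 3 or 4 on optimal food. In SR flies they were mRpL45, which ties the ribosome to the inner membrane in mammals (0.27 ± 0.083, adjusted p = 0.018), mRpS14 (0.22 ± 0.077), mRpL16 (0.22 ± 0.066) and mRpS11 (0.17 ± 0.061), with 16.4% of all probe sets called. Each of these 4 was lost without 2 to 6 of the 8 arrays (adjusted p up to 0.23), and mRpS11, which has a further probe set, was lost when its probe sets were averaged (0.14, adjusted p = 0.23). The SR count was 12 without replicate 1 on malnutrition, one of the arrays that stood apart, 1 without replicate 2 of either food, and 2 without replicate 4 on malnutrition or replicate 3 on optimal food.

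In the average over groups the largest rises on malnutrition were those of mRpS5 (0.29 ± 0.055), mRpL3 (0.26 ± 0.069), mRpL16 (0.21 ± 0.034), mRpS7 (0.20 ± 0.053) and mRpL41 (0.18 ± 0.050), and the largest falls those of mRpL51 (-0.17 ± 0.040), mRpS29 (-0.16 ± 0.040), mRpS2 (-0.12 ± 0.041), mRpS22 (-0.12 ± 0.038) and mRpS6 (-0.11 ± 0.037). Of these 10 calls only that of mRpS2 was lost when 1 of the 31 arrays was left out, old C replicate 2 on malnutrition (adjusted p = 0.053).

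On overfeeding the genes leaned upwards without any being called in a single group. In old SR, middle-aged SR, old C and middle-aged C flies 58, 57, 62 and 51 of 69 genes were higher than on optimal food, with medians of 0.058, 0.10, 0.13 and 0.046. All probe sets together leaned upwards too, by less: 40.3%, 42.9%, 46.7% and 46% were lower, with medians of 0.029, 0.027, 0.014 and 0.012. Of all probe sets 0.25%, 1.12%, 0.9% and 0.0107% were called, and 2, 6, 11 and 2 of the 69 genes had an unadjusted p under 0.05. The average over the 4 groups, added later, called 12 genes as higher and 0 as lower. Of all probe sets 16.3% were called, 8.13% as higher. Of the brighter ones 26.9% were called, 13.9% as lower and the rest as higher, so the share of rises was larger among them than over all probe sets. In this average 64 of 69 genes were higher, while 38.7% of all probe sets and 42.5% of the brighter ones were lower. The largest rises were those of mRpL3 (0.23 ± 0.069, adjusted p = 0.023), mRpL19 (0.20 ± 0.055, adjusted p = 0.014), mRpS26 (0.19 ± 0.065, adjusted p = 0.042), mRpL17 (0.17 ± 0.053, adjusted p = 0.024) and mRpS5 (0.16 ± 0.055, adjusted p = 0.042). Of these mRpL19 held without any 1 of the 31 arrays, mRpL3 and mRpL17 were lost without old SR replicate 2 on optimal food or overfed old C replicate 1, and mRpS26 and mRpS5 without 17 and 16 of them, with adjusted p up to 0.084 and 0.096. Germline markers were 0.11 higher on overfeeding in the same average, and with their mean as a covariate 1 gene was called. Neuron markers had a shift of -0.26, and with centring on them all 69 genes were higher. The count was 4 without either of the arrays that took away the call of mRpL3, and 20 without old C replicate 2 on optimal food. It was 6 or 7 without middle-aged C replicate 1, old C replicate 3 or middle-aged SR replicate 1 on optimal food, or without overfed old C replicate 2, middle-aged SR replicate 3 or old SR replicate 4.

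Of the 69 genes 41 were called in at least 1 of the 20 single comparisons of age, line and food, and 28 in none. With the averages counted as well, 16 genes were called nowhere. These totals were not taken over all probe sets, so they are not read as particular to these genes.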

How the data were processed

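Biotin-labelled cRNA of pools of 5 whole virgin females was hybridised to 46 arrays. The deposited log2 values were computed by the authors with RMA, so backgrounds were subtracted, arrays given 1 common distribution and the probes of a set summarised, which removes a change shared by most genes. R 2.7.0 is named in the submitters' notes. Array number limits the precision. Groups come from the titles and gene names from the platform's annotation. A gene's brightest probe set was used (mRpL47 and mRpS11 have a further one), and 183 control probe sets were left out.

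One mean per group was fitted to 18769 probe sets over all arrays (limma 3.58.1, lmFit and eBayes, R 4.3.3; two-sided), with Benjamini-Hochberg adjustment within a contrast and a threshold of 0.05. The methods name an ANOVA with contrasts and a permutation-based empirical Bayes test, which was not rerun here. Alternatives were no moderation, an intensity trend, the compared groups alone, probe sets with a mean under 5 left out, centring on the median of brighter probe sets or on neuron markers, the germline mean as covariate, the replicate number as a block, the mean of a gene's probe sets and each array left out. Averages over groups, and the fit without the 5 arrays that stood apart (cytosolic ribosomal protein mean under 12), were chosen after seeing the data. Members and lists were chosen with earlier results of these data known. The fitting code was tested on simulated data.

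Genes were named by a rule: per contrast the 5 largest rises and falls among members called, the 3 highest and 3 lowest in mean, those with over 1 probe set, and up to 4 of the smallest p in other lists; others are only listed or are marked where they stand. The titles call the replicates biological, but nothing says that they came from separate cultures, so p-values measure the spread between these pools. Arrays of the same number deviated together over all pairs in 2 of the 20 single comparisons, namely for age in C on optimal food (r of 0.35 to 0.39) and for line in overfed old flies (r of 0.11 to 0.19).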

Additional observations from a re-analysis of the deposited data

Results flagged for a closer look

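In 230 sets of 4 arrays (20 named genes and 3 means in 10 groups), 9 held an array far from the other 3 by Dixon's criterion, which chance meets in about 1 in 20 sets. The gap's share of the range is given for each. In middle-aged overfed C flies these were the mean of all 69 genes (0.869) and of the large subunit (0.850), both with a high replicate 4, mRpL3 with a low replicate 4 (0.956), mRpL4 with a high replicate 2 (0.898) and mRpL46 with a low replicate 3 (0.834). In the other groups they were mRpL16 in overfed old SR flies, with a high replicate 4 (0.931), mRpL48 in middle-aged C flies on malnutrition, with a low replicate 1 (0.880), mRpS22 in middle-aged SR flies on optimal food (0.849) and mRpS26 in old SR flies on malnutrition (0.902), the last 2 with a low replicate 1 in arrays that stood apart. The age effect in C flies was higher on malnutrition than on optimal food by 0.42 for mRpL14 and 0.35 for mRpL16, by the test of the difference itself.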

How the results depend on the processing

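Counts are of the 69 genes called. The shares of all probe sets called under the alternatives are not given in this section, so the shifts are not read as particular to these genes. With single arrays left out, the counts ran from 9 to 37 for the age difference of C on optimal food (30 with all arrays), 13 to 29 for the averaged age difference in C (27), 0 to 2 for that in SR (0), 14 to 20 for averaged malnutrition (19), 4 to 20 for averaged overfeeding (12) and 17 to 21 for the averaged line difference (19). For malnutrition they ran from 1 to 12 in old SR (4), 3 to 6 in middle-aged SR (5), 2 to 5 in old C (4) and 0 to 4 in middle-aged C flies (3). For overfeeding they were 0 to 1 in middle-aged SR and old C flies (0 each). For line, malnutrition gave 1 to 5 in old (2) and 1 to 2 in middle-aged flies (2), optimal food 1 to 3 in old (3) and 5 to 10 in middle-aged flies (9), and overfeeding 2 to 3 in old (3) and 0 to 3 in middle-aged flies (2). The line difference of the age effect on optimal food gave 0 to 1 (0), and the malnutrition difference of the age effect in C 0 to 3 (2). All other comparisons stayed at 0.

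Centring on the neuron markers gave 46 for age in C on optimal food, 67 for averaged age in C, 69 for averaged malnutrition and for averaged overfeeding, 10 for averaged line, 68, 43, 66 and 69 for malnutrition in old SR, middle-aged SR, old C and middle-aged C flies, 63 for overfeeding in middle-aged SR, 50 for line on optimal food in middle-aged flies, 1 for line on overfeeding in old and in middle-aged flies, 15 for the malnutrition difference of the line effect in middle-aged flies, and 0 for line on malnutrition at both ages, line on optimal food in old flies and the malnutrition difference of the age effect in C. This centring moves the difference of every probe set by the shift of the neuron markers. The shares of all probe sets called under it are not given here. It reversed 15 named differences. On averaged malnutrition these were mRpL16 (-0.56), mRpL3 (-0.50), mRpL41 (-0.58), mRpS5 (-0.47) and mRpS7 (-0.57). In old C flies on malnutrition they were mRpL16 (-0.38), mRpL3 (-0.37), mRpL46 (-0.47) and mRpL54 (-0.40), and in old SR flies mRpL16 (-0.60), mRpL45 (-0.55), mRpS11 (-0.65) and mRpS14 (-0.60). The last were mRpL4 in middle-aged SR flies on malnutrition (-0.24) and mRpS22 between the lines in middle-aged flies on optimal food (-0.14).

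The germline covariate gave 0 for age in C on optimal food, averaged age in C, malnutrition in middle-aged C and the malnutrition difference of the age effect in C, 1 for age in C on malnutrition and for averaged overfeeding, 7 and 8 for malnutrition in old and middle-aged SR, 7 for line on optimal food in old and 4 on overfeeding in middle-aged flies. The compared groups alone gave 11 for age in C on optimal food, 1 for it on overfeeding, 1, 2, 2 and 0 for malnutrition in old SR, middle-aged SR, old C and middle-aged C flies, 0 and 1 for line on malnutrition in old and middle-aged flies, 1 and 5 on optimal food, 1 on overfeeding in middle-aged flies, and 0 for the malnutrition difference of the age effect in C. Centring on brighter probe sets gave 15 for age in C and 1 in SR on optimal food, 17 for averaged age in C, 9 for malnutrition in middle-aged SR and 5 for line on optimal food in old flies. Without dim probe sets there were 4 for the malnutrition difference of the age effect in C, 1 for averaged age in SR, 19 for averaged overfeeding, 8 for malnutrition in middle-aged SR and 1 for the line difference of the age effect on optimal food. The trend gave 1 for line on malnutrition in middle-aged flies, the mean over probe sets 1 for averaged age in SR, and no moderation 1 for that and 1 for line on malnutrition in old flies.

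Without the 5 arrays that stood apart, an alternative chosen after seeing the data, there was 1 for age in C on malnutrition and in SR on overfeeding, 2 for it in C on overfeeding and averaged in SR, 14, 7 and 8 for malnutrition in old SR, old C and middle-aged C flies, 2 for overfeeding in old C, 2 for the line difference of the age effect on optimal food and for the malnutrition difference of the line effect in middle-aged flies, 4 and 7 for line on malnutrition and optimal food in old and 5 on overfeeding in middle-aged flies.

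With the replicate number as a block there were 1 for averaged age in SR, 20 for averaged overfeeding, 5 for malnutrition in middle-aged C, 1 for overfeeding in old C and 4 for line on malnutrition in old flies, comparisons in which the arrays share only a number. In age in C on optimal food, where same-numbered arrays deviated together, the block gave 32. No other count moved by over 1.5 times with the block. The cause of these shifts was not tested.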
